A study of Mus musculus with 14 samples.

Results

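The nuclear-encoded subunits of the oxidative phosphorylation complexes were measured in left ventricular RNA of WT and HCN4F hearts, with and without pressure load by TAC. Members were taken by gene name (Nduf subunits of the a, b, c, s and v series, Sdha to Sdhd, Uqcr genes, Cox4 to Cox8 genes and Atp5 genes, without pseudogenes), which gave 83 of the 49315 genes in the table. A gene was kept with at least 10 counts in at least 2 libraries. This left 81 members, 37 in complex I, 4 in complex II, 8 in complex III, 16 in complex IV and 16 in complex V, and all 81 passed the filter on low counts and were tested together with 15292 genes in all. Cox7b2, with at most 5 counts in a library, and Cox8c, with 0, were left out.

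Complexes I to IV form the respiratory chain of the inner mitochondrial membrane, which passes electrons from NADH and succinate to oxygen and pumps protons, and complex V is the ATP synthase that uses the resulting gradient. Most subunits are encoded in the nucleus, while a small number are encoded in mitochondrial DNA. The heart covers most of its ATP demand in this way, and heart and skeletal muscle use their own isoforms of several complex IV subunits in place of the forms found in most tissues. By present nomenclature the product of Ndufa4 belongs to complex IV, Cox7a2l encodes a supercomplex factor and Atp5s a factor associated with complex V, and they are counted here under the complex of their gene name.

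The groups were WT-Sham (n = 4), HCN4F-Sham (n = 4), HCN4F-TAC (n = 4) and WT-TAC (n = 2, replicates 2 and 3). HCN4F mice carry a knock-in gain-of-function exchange of tyrosine for phenylalanine in the pacemaker channel HCN4, and WT mice do not. Male mice of 10 to 12 weeks received TAC, a constriction of the transverse aorta that raises the load on the left ventricle, or Sham surgery, and hearts were taken 5 weeks later. WT-TAC samples with other numbers are not analysed here, and the sources used here do not state the zygosity of the animals.

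Depth was 22309914 to 35210939 counts per library, and the 81 genes took 3.46% to 4.82% of them. Genes of the mitochondrial genome took 13.9% to 23.1%. All 10 cardiomyocyte markers were detected in every library, Myh6 at 20000 to 32800 CPM (counts scaled to a common library size with edgeR's TMM factors). Fast skeletal muscle markers stayed at or under 1.55 CPM, and the adipocyte markers Adipoq, Plin1, Lep, Retn and Ucp1 at or under 0.259 CPM, while the sixth, Cidea, was at 21.4 to 27.6 CPM in every library. HCN4F-Sham 3 and 4 stood apart from the other Sham libraries in the subunit genes, with the lowest scores among them. In whole-tissue RNA, fewer cells of a type and less RNA per cell cannot be told apart.

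Per kilobase of all exons of a gene, the levels in WT-Sham hearts covered a wide range. The highest were Cox6a2 at 2326 CPM per kb, Cox8b at 1903, Atp5a1 at 1381, Cox7a1 at 1371 and Cox4i1 at 1325. Cox6a2, Cox8b and Cox7a1 are the muscle isoforms of their complex IV subunits, Cox4i1 encodes the common form of subunit 4, and Atp5a1 encodes the alpha subunit of the ATP synthase. The order at the top depends on the length used. Per kilobase of the longest protein-coding transcript, Cox4i1 at 2685 and Atp5b, the catalytic beta subunit of the synthase, at 2645 came before Cox6a2 at 2326 and Cox8b at 1903. With either length the lowest were the same 3. Per kilobase of exon they were Cox6b2 at 1.46 CPM per kb, a form of subunit 6b known from testis, Atp5s at 7.78 and Cox4i2 at 11.2, the form of subunit 4 known from lung.

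After TAC, subunit genes of every complex were lower in HCN4F hearts. Of 81 members, 62 (76.5%) fell and 0 rose at an adjusted p under 0.05 by edgeR's quasi-likelihood test, where 6.41% of all 15292 genes fell and 7.2% rose. All 81 fold changes were below 0, against 51.1% of all genes. The median log2 fold change of the members was -0.32, that of all genes tested -0.01. The 4 HCN4F-TAC libraries lay below all 4 HCN4F-Sham libraries in 48 members (59.3%), against 7.16% of all genes, and above them in 0, against 7.95%. The called falls ranged from -0.96 to -0.23 on the log2 scale. With the study's second limit of a log2 fold change beyond 1, 0 members were called in either direction, against 1.58% of all genes upwards and 1.16% downwards.

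Falls were found in each complex. The median log2 fold change in HCN4F hearts was -0.32 in complex I, where 29 of 37 genes fell, and -0.25 in complex II, where 2 of 4 fell. It was -0.31 in complex III, with 7 of 8, -0.37 in complex IV, with 10 of 16, and -0.35 in complex V, with 14 of 16. In WT hearts the medians were -0.33, -0.17, -0.28, -0.34 and -0.33 for complexes I to V. With the trend on transcript length removed, as described with that trend, they were -0.12, -0.03, -0.05, -0.11 and -0.13 in WT hearts, and -0.17, -0.21, -0.15, -0.20 and -0.23 in HCN4F hearts, where 14, 1, 2, 8 and 11 genes fell. Differences between complexes were not tested.

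A score per library, the median over the members of the log2 difference from the WT-Sham mean, shows the spread behind these counts. It lay between -0.07 and 0.10 in WT-Sham. In HCN4F-Sham it was 0.05, 0.02, -0.28 and -0.15 in replicates 1 to 4. In WT-TAC it was -0.34 and -0.29, and in HCN4F-TAC -0.33, -0.46, -0.39 and -0.47. The TAC libraries of both genotypes were below every Sham library, with HCN4F-Sham 3 next to WT-TAC 3. The sum of 77 cytosolic ribosomal protein genes was also low in HCN4F-Sham 3, at 11737 CPM, as in the TAC libraries at 11570 to 12245 CPM, against 12920 to 15695 CPM in the other Sham libraries. Without HCN4F-Sham 3, 68 members fell and the median over the members was -0.40. Of all genes, 7.15% fell in that setting, against 6.41% in the reported fit.

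**Figure D1:**
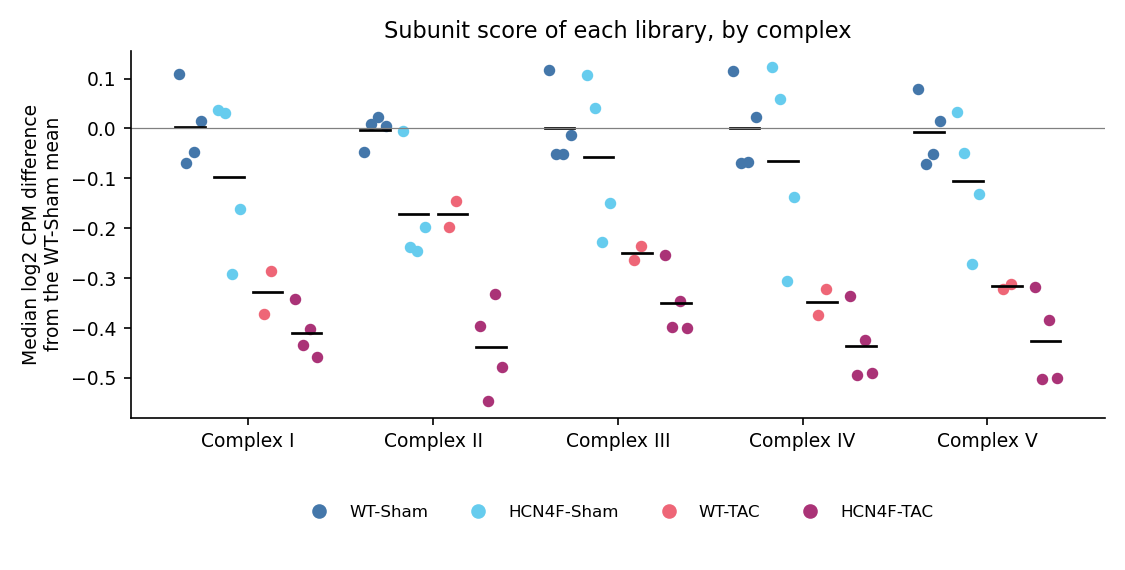
Subunit score of each library (y axis: median log2 CPM difference from the WT-Sham mean) for complexes I to V, with 1 point per library in replicate order, coloured by group, and a black line at the group mean. TAC libraries lie lowest in complexes III, IV and V, in complex I HCN4F-Sham 3 (-0.29) lies beside WT-TAC 3 (-0.28), and in complex II the WT-TAC libraries (-0.20 and -0.15) lie among the HCN4F-Sham libraries.

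Cox7a1, the muscle form of subunit 7a (chr7:30184144-30186078, plus strand, GRCm38), had the smallest p of the members in both genotypes. It measured 765, 682, 759.8 and 727 CPM in WT-Sham and 658, 699, 669.9 and 602 CPM in HCN4F-Sham. It measured 444 and 474 CPM in WT-TAC and 388, 411, 446 and 377 CPM in HCN4F-TAC. The TAC libraries were below the Sham libraries without overlap in both genotypes. Cox7a1 fell by 38.3% in HCN4F hearts (log2 fold change -0.70 ± 0.07 SE, adjusted p = 3.01e-05, edgeR). In WT hearts it fell by 37.4% (-0.68 ± 0.09, adjusted p = 0.00167).

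Atp5e encodes the small epsilon subunit of the central stalk of ATP synthase. It measured 464, 427, 294 and 360.5 CPM in HCN4F-Sham and 259, 217, 258 and 246 CPM in HCN4F-TAC, with no overlap, HCN4F-Sham 3 being the lowest Sham library. It fell by 36.6% in HCN4F hearts (log2 fold change -0.66 ± 0.11 SE, adjusted p = 0.00131, edgeR). In WT hearts it was 365 ± 27.3 CPM after Sham (SD, n = 4) and 282 and 265 CPM after TAC, a log2 fold change of -0.42 with an adjusted p of 0.095.

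Among the peripheral subunits of complex I, Ndufa5 measured 486, 485, 398 and 431 CPM in HCN4F-Sham and 346, 323, 330.1 and 306 CPM in HCN4F-TAC. In WT hearts it measured 489, 438, 451 and 468 CPM after Sham and 339 and 352 CPM after TAC. Neither genotype overlapped between Sham and TAC, and Ndufa5 fell in both, by 0.46 on the log2 scale in HCN4F (adjusted p = 0.000831, edgeR) and by 0.42 in WT (adjusted p = 0.0238). The other accessory subunits of complex I that fell in both genotypes were Ndufa3, Ndufa6, Ndufa8, Ndufa13, Ndufb11, Ndufc1, Ndufs6 and Ndufv3. Part of the exons of Ndufa13 (30%) overlaps Tssk6 on the opposite strand, and whether counting used the strand is not given in the sources used here.

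A list of 23 catalytic and structural subunits was also followed, with Cox4i1, Cox5a and Cox5b for complex IV, whose catalytic core is encoded in mitochondrial DNA. Of these 23, 16 fell in HCN4F hearts, against 6.41% of all genes, and 2, Cox5b and Atp5o, in WT hearts, against 1.62%. The median log2 fold changes were -0.28 and -0.25. With the trend on transcript length removed, 0 members passed in WT hearts. In complex I, the core subunits Ndufs7, Ndufs8, Ndufv1 and Ndufv2, which carry or flank the flavin and the iron-sulfur clusters, fell in HCN4F hearts by 0.28 to 0.39 on the log2 scale. Ndufs3 (-0.21, adjusted p = 0.0789) and Ndufs1 (-0.15, adjusted p = 0.339) did not pass the test. Ndufs1 encodes the largest core subunit and was at 499.7 ± 32.4 CPM in WT-Sham (n = 4) and 536 and 484 CPM in WT-TAC, a log2 fold change of 0.03.

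Complex II, or succinate dehydrogenase, also works in the citric acid cycle and is encoded wholly in the nucleus. Its membrane anchor Sdhc measured 385, 329, 321 and 331 CPM in HCN4F-Sham and 275, 244, 289 and 245 CPM in HCN4F-TAC, without overlap, and fell by 0.38 on the log2 scale (adjusted p = 0.00369, edgeR). The iron-sulfur subunit Sdhb fell by 0.28 (adjusted p = 0.031). The flavoprotein Sdha (-0.22, adjusted p = 0.119) and the anchor Sdhd (-0.11, adjusted p = 0.415) did not pass.

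In complex III, Uqcrq, which encodes a small subunit, measured 704, 719, 515 and 518 CPM in HCN4F-Sham and 442, 458, 455 and 434 CPM in HCN4F-TAC. These groups did not overlap, and Uqcrq fell by 0.46 on the log2 scale (adjusted p = 0.00854, edgeR). The Rieske iron-sulfur protein Uqcrfs1 (-0.23) and the core protein Uqcrc1 (-0.27) fell as well, while the second core protein Uqcrc2 was at -0.07 (adjusted p = 0.563). In complex V the catalytic beta subunit Atp5b fell by 0.26 (adjusted p = 0.0167), from 4664 ± 232 to 3882 ± 275 CPM (SD, n = 4 each), and the alpha subunit Atp5a1 was at -0.20 (adjusted p = 0.0713). Also falling in HCN4F hearts were Cox6c (-0.49) and Cox7b (-0.48) of complex IV. Cox6b2, at -0.96 with an adjusted p of 0.0408, was a gene of only 0.955 to 1.1 CPM in HCN4F-TAC and 1.09 to 3.31 CPM in HCN4F-Sham, and these ranges overlapped. The members that passed in neither genotype were Ndufa4l2, Ndufa9, Ndufa10, Ndufa11, Ndufb3, Ndufb5, Ndufs1 and Ndufs3 of complex I, Sdha and Sdhd, Uqcrc2, Cox5a, Cox6a1, Cox6b1, Cox7a2l and Cox8a of complex IV, and Atp5a1 and Atp5s, with log2 fold changes of -0.25 to -0.01 in HCN4F hearts.

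In WT hearts, 17 of 81 members (21%) fell after TAC and 0 rose by the same test, where 1.62% of all genes fell and 2.92% rose. Fold changes were below 0 in 79 members, against 53.5% of all genes, with a median of -0.31 against -0.02. The 2 exceptions were Ndufs1 and Sdha (0.01). The 17 were 9 genes of complex I, 4 of complex IV and 4 of complex V, and 0 of complexes II and III. Both WT-TAC libraries lay below all 4 WT-Sham libraries in 75 members, a pattern that 20% of all genes showed with these few libraries, and above them in 0, against 19.2%. With the limit of a log2 fold change beyond 1, 0 members were called, against 0.445% of all genes upwards and 0.262% downwards. Among the 17, the largest falls after that of Cox7a1 were in Cox4i2 (-0.46), Cox8b (-0.46), Ndufa3 (-0.45) and Ndufa13 (-0.44). Cox6b2, at -0.77, did not pass (adjusted p = 0.241).

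The WT count rests on 2 TAC libraries and moved with the libraries fitted, as did the share of all genes called. It was 1 without WT-Sham 1, without WT-Sham 4, without WT-TAC 2 or without WT-TAC 3, where 0.329%, 0.256%, 0.34% and 0.0126% of all genes fell. It was 7 without WT-Sham 2 (0.781% of all genes) and 11 without WT-Sham 3 (1.12%). Where edgeR was fitted on the WT libraries alone, which also changes the genes tested and their scaling, it was 62 (4.97% of all genes). The count in HCN4F hearts was 38 without HCN4F-TAC 4 (4.45% of all genes), and 42 to 68 with any other of its libraries left out (3.86% to 7.42%).

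The genotypes have no library in common in these 2 comparisons, and the members' values can be set side by side. Of the 81 members, 16 fell in both genotypes, 46 in HCN4F alone, 1 (Cox4i2) in WT alone and 18 in neither. This split does not show a difference between genotypes. The difference itself, the genotype by surgery interaction, passed the test in 0 of 81 members by edgeR, 0 had an unadjusted p under 0.05, and DESeq2 also called 0. In all genes, 0 of 15292 passed, with 4.88% higher and 4.39% lower at an unadjusted p under 0.05. The median interaction over the members was -0.01 on the log2 scale, with 48 of 81 below 0, against 48.7% of all genes. For Cox7a1 it was -0.02 with a 95% interval of -0.28 to 0.24, for Atp5e -0.24 (-0.64 to 0.15) and for Atp5l -0.31 (-0.67 to 0.05).

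**Figure D2:**
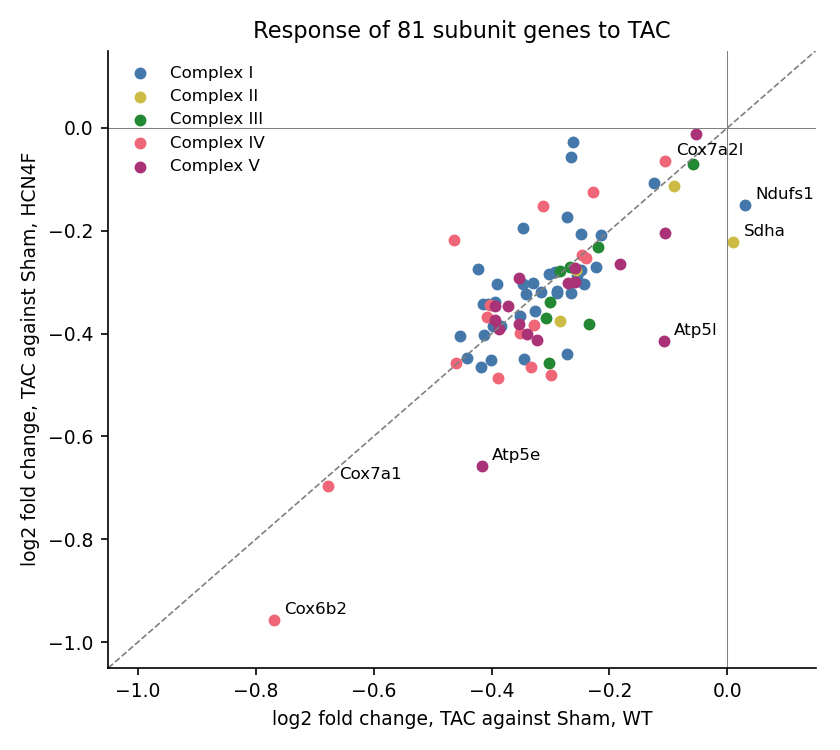
Log2 fold change of each of the 81 subunit genes after TAC in WT hearts (x axis) and in HCN4F hearts (y axis), coloured by complex, with a dashed line of equal change. Points lie along the line with a median of -0.31 on x and -0.32 on y, and Cox7a1, Cox6b2 and Atp5e lie farthest down.

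Short transcripts in general were lower after TAC, and the subunit genes are short. Their median transcript length was 865 bases, against 3005 bases over all genes tested. Among genes outside the set with a mean of at least 1 CPM, the median log2 fold change in HCN4F hearts was -0.26 for transcripts up to 500 bases (n = 144), -0.16 above that and up to 1000 bases (n = 586), -0.06 from there up to 2000 bases and 0.04 above 4000 bases. In WT hearts it was -0.20, -0.24, -0.14 and 0.11 for the same lengths. Members over 500 and up to 1000 bases (n = 41) had medians of -0.35 in both genotypes. The 77 cytosolic ribosomal protein genes, another set of short and abundant transcripts, had medians of -0.22 in HCN4F hearts, where 18 fell, and -0.24 in WT hearts, where 0 fell.

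With the trend on transcript length removed in each library, an alternative chosen after seeing the data, 36 of 81 members fell in HCN4F hearts, with a median of -0.18, where 6.13% of all genes fell. In WT hearts 0 passed, where 0.373% of all genes fell, 21 (against 8.78% of all genes) were lower at an unadjusted p under 0.05, and the median was -0.11. Cox7a1 was at -0.49 in HCN4F hearts (adjusted p = 0.00148, edgeR) and at -0.43 in WT hearts (adjusted p = 0.0551), and Atp5e at -0.42 in HCN4F hearts (adjusted p = 0.00298). Other genes described as falling did not pass in this setting, among them Atp5g3 (-0.18, adjusted p = 0.0731) and Sdhb (-0.16, adjusted p = 0.106) in HCN4F hearts. Over all alternatives the adjusted p of Cox7a1 reached at most 0.00207 in HCN4F and 0.0711 in WT hearts, and that of Atp5e at most 0.0108 in HCN4F hearts. The ribosomal protein genes then had medians of -0.07 and -0.05. Whether the trend on length arises in the tissue or in the preparation of the libraries was not tested.

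**Figure D3:**
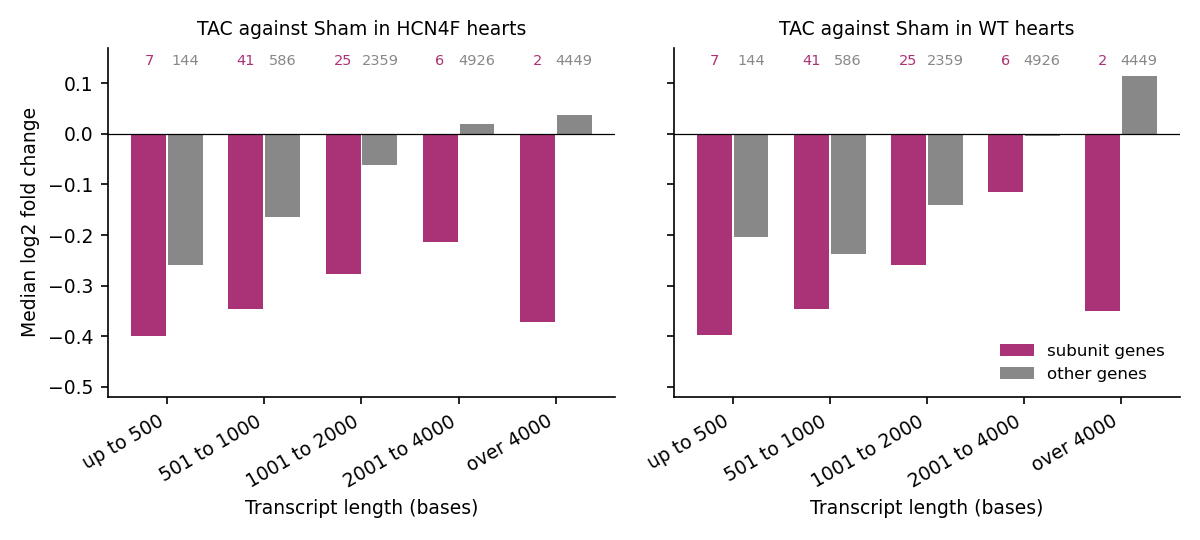
Median log2 fold change after TAC (y axis) by transcript length in bases (x axis) in HCN4F hearts (left) and WT hearts (right), for the subunit genes (purple) and other genes with a mean of at least 1 CPM (grey), with the number of genes above each bar. Subunit genes lie below the other genes at every length, and the other genes run from negative to positive values as length increases, apart from the shortest bins in WT hearts (-0.20 and -0.24).

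Complex IV is the part of the chain with muscle isoforms, and these were compared with the forms found in most tissues. In WT-Sham hearts the level per kilobase of exon of Cox7a1 was 6.79 times that of Cox7a2, Cox6a2 12.8 times Cox6a1, and Cox8b 9.74 times Cox8a. Per kilobase of transcript these ratios were 5.23, 10.4 and 8.65. Cox8b measured 747, 701, 557 and 625 CPM in HCN4F-Sham and 469.5, 489, 499 and 459 CPM in HCN4F-TAC, and Cox8a 129.9, 132, 93.3 and 98.8 CPM and 97, 102, 97.7 and 111 CPM. Cox8b did not overlap between these groups and fell (-0.46, adjusted p = 0.00206, edgeR), and Cox8a overlapped (-0.15, adjusted p = 0.348).

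A ratio within a library does not depend on the scaling of libraries. The transcripts of Cox8b and Cox8a are 360 and 550 bases long. The log2 ratio of Cox8b to Cox8a was 2.52, 2.41, 2.58 and 2.66 in HCN4F-Sham and 2.28, 2.26, 2.35 and 2.04 in HCN4F-TAC. These groups did not overlap, with a difference of -0.31 (exact permutation test, two-sided, p = 0.0286, the smallest that 4 against 4 allows, and 0.143 after Benjamini-Hochberg adjustment over 10 pairs). The ratio of Cox7a1 to the supercomplex factor Cox7a2l differed by -0.64 with no overlap (exact p = 0.0286, adjusted p = 0.143). The transcripts of this pair differ in length by a larger factor than those of Cox8b and Cox8a, Cox7a2l being the longer. Ratios were not computed with the trend on transcript length removed. Cox7a1 to Cox7a2 (-0.24, exact p = 0.257) and Cox6a2 to Cox6a1 (-0.26, exact p = 0.171) overlapped. In WT hearts the differences were -0.15 for Cox8b to Cox8a, -0.57 for Cox7a1 to Cox7a2l and -0.35 for Cox7a1 to Cox7a2, and the exact test cannot go below 0.133 with 4 against 2 libraries. An adjusted p under 0.05 would need 6 of the 10 pairs at the smallest p in HCN4F hearts, where 2 of the 10 did not overlap. No ratio passed there after adjustment, and a change in fewer than 6 pairs could not have passed. In WT hearts an adjusted p under 0.05 cannot be reached, so the adjusted values there say nothing of whether a ratio changed.

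**Figure D4:**
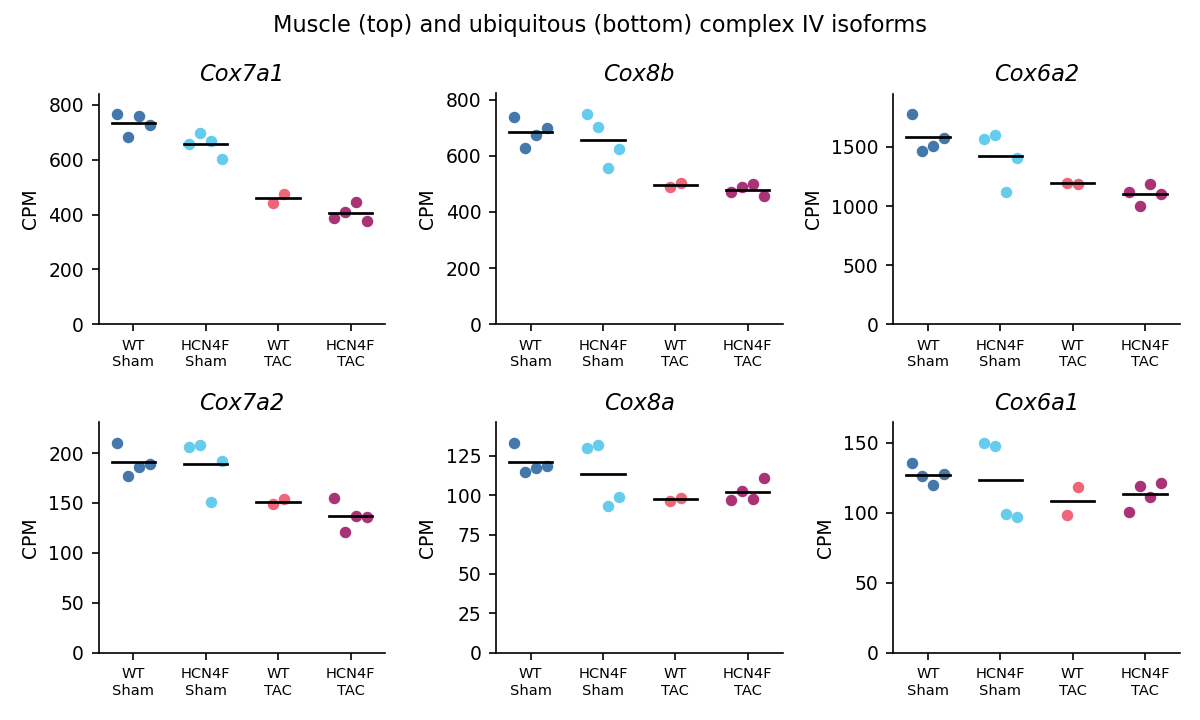
CPM (y axes, from 0) of 3 muscle isoforms of complex IV (top row: Cox7a1, Cox8b, Cox6a2) and of their ubiquitous forms (bottom row: Cox7a2, Cox8a, Cox6a1) in each library, with a line at the group mean. Cox7a1 and Cox8b lie lower in every TAC library than in every Sham library, whereas Cox8a in HCN4F-TAC (97 to 111 CPM) lies within the HCN4F-Sham range.

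The other isoform sets were compared in the same way. The ratio of Ndufa4l2 to Ndufa4 differed by 0.34 in HCN4F hearts (exact p = 0.0571) and by 0.09 in WT hearts, and that of Cox6b2 to Cox6b1 by -0.62 (exact p = 0.114) and -0.67, all with overlap. The genes Atp5g1, Atp5g2 and Atp5g3, which encode the same mature c subunit of the ATP synthase ring, all fell in HCN4F hearts, by 0.29, 0.27 and 0.35 on the log2 scale, and their ratios differed by -0.08 to 0.06 between TAC and Sham. In WT hearts the ratios differed by -0.14 to 0.04, each without overlap and each at an exact p of 0.133, the smallest that 4 against 2 allows. Cox4i2 was at 8.17 ± 0.831 CPM in HCN4F-Sham and 7.02 ± 0.188 CPM in HCN4F-TAC (SD, n = 4 each), a value of -0.22 on the log2 scale with an adjusted p of 0.139. Ndufa4l2, a paralog of Ndufa4 known to respond to low oxygen, was at 20.5 ± 4.00 and 20.04 ± 1.37 CPM in the same groups, while Ndufa4 fell (-0.37, adjusted p = 0.0188).

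Between genotypes, 0 of 81 members passed the test in Sham hearts, where 0.229% of all genes were higher and 0.242% lower in HCN4F. By unadjusted p under 0.05, 1 was higher and 6 were lower, shares of 1.23% and 7.41% against 7.93% and 7.27% of all genes. The median log2 fold change was -0.10, with 70 members below 0, against 48.9% of all genes. The members moved together within a library. Below the WT-Sham mean were 28 and 37 members in HCN4F-Sham 1 and 2, and 80 and 75 in HCN4F-Sham 3 and 4. In WT-Sham 1 to 4 these numbers were 8, 75, 72 and 26. The genotypes did not overlap in 4 members, all lower in HCN4F (4.94%, against 4.67% of all genes lower and 3.89% higher). DESeq2 on all groups called 1 member, Sdhd, and 1.17% of all genes lower. The smallest p-values belonged to Sdhd and Atp5l, which encodes the g subunit of ATP synthase.

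Sdhd measured 317, 335, 346 and 328 CPM in WT-Sham and 319.6, 239.5, 272 and 238 CPM in HCN4F-Sham. It measured 303 and 320.0 CPM in WT-TAC and 251, 240.1, 264 and 234 CPM in HCN4F-TAC. HCN4F libraries were the lower ones, with HCN4F-Sham 1 within the WT range, and no overlap after TAC. The log2 difference was -0.31 ± 0.09 after Sham (adjusted p = 0.114, edgeR) and -0.33 ± 0.10 after TAC (adjusted p = 0.198). Without HCN4F-Sham 1 it was -0.41 after Sham, with an adjusted p of 0.00871, and over all alternatives the adjusted p ranged from 0.00871 to 0.267 after Sham and from 0.0293 to 0.648 after TAC.

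Atp5l measured 226, 212, 208 and 217 CPM in WT-Sham and 328, 280.0, 214 and 278 CPM in HCN4F-Sham, where 3 libraries were above the WT range and HCN4F-Sham 3 was within it. The difference was 0.35 ± 0.10 on the log2 scale (adjusted p = 0.126, edgeR). It passed without HCN4F-Sham 3 (0.46, adjusted p = 0.0369) and with the length trend removed (0.35, adjusted p = 0.0445). Among the alternatives run the lowest adjusted p was 0.0269 and the highest 0.278. After TAC, Atp5l was at 192 and 208 CPM in WT and at 233, 197, 192 and 204 CPM in HCN4F, and the difference was 0.04. Sdhd and Atp5l both lie on chromosome 9, as does Hcn4, at coordinates 8.23 and 13.9 Mb before it. The other members there are Cox5a (1.3 Mb before), Cox7a2 (20.9 Mb after) and Uqcrc1 (50.1 Mb after), with log2 differences after Sham of -0.09, -0.01 and -0.18. The HCN4F allele and any DNA that came with it cannot be told apart in this design.

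**Figure D5:**
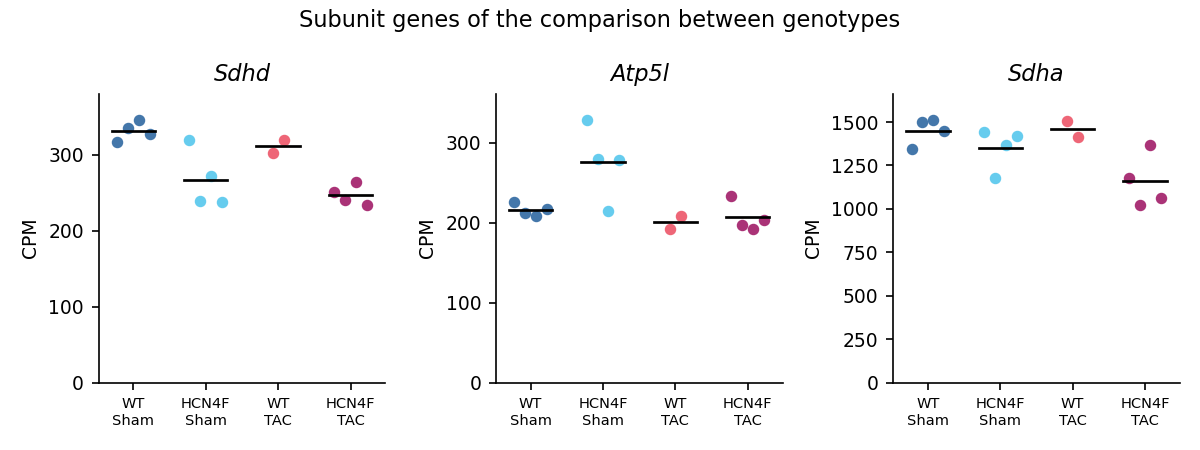
CPM (y axes, from 0) of Sdhd, Atp5l and Sdha in each library of the 4 groups, with a line at the group mean. Sdhd lies lower in HCN4F than in WT libraries apart from HCN4F-Sham 1, Atp5l is raised in 3 of 4 HCN4F-Sham libraries, and Sdha is lower in HCN4F-TAC (1025 to 1368 CPM) than in WT-TAC (1416 and 1506 CPM).

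In TAC hearts 0 of 81 members passed between genotypes, where 0.0589% of all genes were higher and 0.0523% lower in HCN4F. DESeq2 on the TAC groups called 1, Sdhd, and 0.309% of all genes lower. By unadjusted p under 0.05, 0 were higher (against 7.45% of all genes) and 8 were lower (9.88%, against 5%), and 72 members were below 0, against 49.3% of all genes. With the length trend removed, 28 were lower by unadjusted p (against 6.04% of all genes), 0 passed, and the median went from -0.09 to -0.14. The HCN4F-TAC libraries lay below both WT-TAC libraries without overlap in 35 members (43.2%, against 11% of all genes) and above them in 1, Cox4i2 (against 11.3%). All 4 genes of complex II were among the 35, with 16 of 37 in complex I. Sdha measured 1506 and 1416 CPM in WT-TAC and 1179, 1025, 1368 and 1064 CPM in HCN4F-TAC, a log2 difference of -0.33 ± 0.11 (adjusted p = 0.224, edgeR). Without HCN4F-TAC 3 it was -0.42, with an adjusted p of 0.0312, and over all alternatives it ranged from 0.0312 to 0.798. Atp5a1 was at -0.24 (adjusted p = 0.257). The fibroblast markers summed to 1057.6 to 1805.3 CPM in HCN4F-TAC and to 992.48 and 829.48 CPM in WT-TAC. All 10 cardiomyocyte markers were below 0 in this comparison (median -0.13). Their sums did not overlap (61531 to 72545 CPM in HCN4F-TAC, 78008 and 79485 CPM in WT-TAC). All 7 macrophage markers (median 0.56), all 5 erythroid markers (1.00) and the 3 tested atrial markers (2.18) were above 0. Of 7 endothelial and 7 mural markers, 2 and 3 were below 0. Of all these markers, 0 passed. The part of cell composition in these differences was not tested.

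Genes that work with the subunits were listed separately. Of 48 tested assembly factors and carriers outside the rule, 3 fell after TAC in HCN4F hearts and 1 rose, with a median of -0.09, and 1, Surf1, fell in WT hearts, with a median of -0.14. These shares are near those of all genes that fell, 6.41% in HCN4F and 1.62% in WT hearts. The 3 were Ndufab1, the acyl carrier subunit of complex I (-0.26), Ndufaf8 (-0.31) and Uqcc2 (-0.36), and the rise was in Cox19 (0.77), a copper-handling factor of complex IV assembly. The carriers Cycs, which encodes cytochrome c, and Cyc1, the cytochrome c1 of complex III, were at -0.20 and -0.17 in HCN4F hearts and did not pass. Of the 13 subunits encoded in mitochondrial DNA, 10 fell in HCN4F hearts (median -0.42) and 1, mt-Nd3, in WT hearts (median -0.24), and with the poly(A) selection used their counts also depend on how these RNAs are captured. Of 9 regulators, 0 passed in HCN4F hearts and 1, Esrrb, rose in WT hearts (0.53). Ppargc1a, the coactivator PGC-1alpha, was at 0.23 ± 0.35 in HCN4F hearts and Esrra at -0.18 ± 0.09, neither past the test.

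Markers of cell types moved as well. Of 10 cardiomyocyte markers, 4 fell and 2 rose in HCN4F hearts after TAC (median -0.24), and 2 fell and 1 rose in WT hearts (median -0.08). Their summed level was 74634 to 82414 CPM in HCN4F-Sham and 61531 to 72545 CPM in HCN4F-TAC. Of 9 fibroblast markers (median 0.51), 5 rose in HCN4F hearts, namely Col1a1, Col1a2, Col3a1, Lum and Postn. Dcn (0.10), Pdgfra (0.10), Tcf21 (0.06) and Dpt (-0.20) did not pass there. In WT hearts 1, Dpt, fell. The sum of the 9 was 855.41 to 1095.9 CPM in HCN4F-Sham and 1057.6 to 1805.3 CPM in HCN4F-TAC. Atrial markers summed to 1863.4 CPM in HCN4F-TAC 2, mostly Nppa, and to 411.69 to 1184.2 CPM in the other HCN4F-TAC libraries. Of the 3 tested, 1, Nppa, rose in HCN4F hearts (3.21), and Myl4 (1.61) and Myl7 (2.99) did not pass. The paper counts Nppa in the fetal gene program raised in left ventricles after TAC, so Nppa does not mark atrial tissue alone. Of 4 tested fast skeletal muscle markers 1 rose and 1 fell in HCN4F hearts, all at 1.55 CPM or less. Of 7 endothelial, 7 macrophage, 7 mural and 5 erythroid markers, 0 passed in either genotype. The part of these shifts in the change of the subunit genes was not tested. Without HCN4F-TAC 2, 42 members fell, where 3.86% of all genes fell, against 6.41% in the reported fit.

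Promoter sequences from RefSeq (GRCm38.p6) were available for 65 of the 81 members, 250 bases before and 50 after the start. They were searched on both strands for motifs of factors known from mitochondrial genes. GCGCATGCGC (NRF1) was in 5 of the members' 65 genes (7.69%) and in 1.07% of all 27025 genes with a promoter. CCGGAAG (GABPA and other ETS factors) was in 16 (24.6%) and 9.93%, AAGGTCA (ERR) in 8 (12.3%) and 5.38%, and AAGATGGC (YY1) in 9 (13.8%) and 3.19%. The 27025 genes were not limited to the genes tested here or matched to the members in expression. No motif contains another, and a match describes letters, not binding. The 250 bases before the start are shown for Cox7a1, the member with the smallest p, which held none of the 4, and for 3 genes of complex V that fell in HCN4F hearts and each held 1 of them there, with the match in capitals on the strand of the gene (for Atp5e the reverse complement of the GABPA motif, for Atp5k the NRF1 motif, for Atp5g3 the reverse complement of the ERR motif). In the 50 bases after the start, which are not shown, Atp5k also held the GABPA and ERR motifs and Atp5e the ERR motif.
Cox7a1 (chr7:30183921-30184170, plus strand): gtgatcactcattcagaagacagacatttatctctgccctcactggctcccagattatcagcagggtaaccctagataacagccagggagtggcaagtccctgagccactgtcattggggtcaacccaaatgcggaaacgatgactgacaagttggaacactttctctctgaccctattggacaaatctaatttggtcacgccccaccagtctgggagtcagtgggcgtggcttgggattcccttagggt
Atp5e (chr2:174464102-174464351, minus strand): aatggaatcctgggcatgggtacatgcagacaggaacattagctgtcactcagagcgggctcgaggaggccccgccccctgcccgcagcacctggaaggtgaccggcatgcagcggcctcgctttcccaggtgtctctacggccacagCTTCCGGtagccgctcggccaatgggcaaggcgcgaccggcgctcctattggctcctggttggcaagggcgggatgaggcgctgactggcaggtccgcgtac
Atp5k (chr5:108434400-108434649, minus strand): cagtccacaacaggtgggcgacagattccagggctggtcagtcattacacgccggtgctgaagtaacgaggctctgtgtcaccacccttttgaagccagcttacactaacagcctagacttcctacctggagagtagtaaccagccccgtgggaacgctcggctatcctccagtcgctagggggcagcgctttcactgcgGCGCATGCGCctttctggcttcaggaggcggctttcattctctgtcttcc
Atp5g3 (chr2:73911327-73911576, minus strand): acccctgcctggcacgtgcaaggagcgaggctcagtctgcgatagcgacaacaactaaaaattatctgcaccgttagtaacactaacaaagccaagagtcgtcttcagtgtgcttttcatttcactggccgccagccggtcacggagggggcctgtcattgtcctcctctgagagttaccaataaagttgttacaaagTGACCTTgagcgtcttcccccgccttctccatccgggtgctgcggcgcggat
Atp5k, which encodes the e subunit of the synthase, fell by 0.40 on the log2 scale in HCN4F hearts (adjusted p = 0.0081, edgeR), and Atp5g3 by 0.35 (adjusted p = 0.00771).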

How the data were processed

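Poly(A)-selected RNA of left ventricles was sequenced by the authors, who deposited raw counts per gene without normalization. The build is GRCm38 by the submitters' processing notes, and the aligner, the counting program and the use of strand are not given in the sources used here. Groups and replicate numbers came from the sample labels. Nothing states whether a number marks a shared batch, and p-values measure the spread between these samples. The table holds 2 further columns of per-sample values, headed as TAC and WT, which match no sample label used here and were not used. Replicates differed by more than sampling noise (chi-square per gene of 6.22 to 61.8 between pairs), so each was counted once.

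Genes were filtered with filterByExpr by group (15292 of 49315), scaled with TMM and fitted in 1 model over all groups with edgeR 4.0.16 (R 4.3.3), quasi-likelihood test with robust estimation, and p-values were adjusted by Benjamini-Hochberg over these genes. A member was called at an adjusted p under 0.05, and separately with a log2 fold change beyond 1, the limit of the study. CPM values carry no pseudocount. DESeq2 1.42.0 was an alternative, as were other scalings and filters, the compared groups alone, the replicate block, each library left out, and, after seeing the data, trends on transcript length and GC content (lowess with a span of 0.3 on non-member genes) removed per library. Isoform ratios were compared with exact permutation tests, and transcript lengths and coordinates came from GENCODE mouse release 21 (the longest protein-coding transcript of a gene). Named genes were the listed catalytic and structural subunits, the isoform sets and, per comparison, the 5 largest called changes in each direction or else the 3 smallest p-values. Of the named genes, 1 is not reported here. Other named genes were chosen after their values were seen. Members and lists were chosen with earlier results of these data known. The steps were tested on simulated data. Plots came from matplotlib 3.10.9 (Python 3.11.15). Depth was 22309914 to 35210939 counts per library, so counting error is small beside the spread between samples.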

Additional observations from a re-analysis of the deposited data

Results flagged for a closer look

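In 6 of 159 groups of 4 libraries examined, over the scores and named genes, 1 library lay far from the other 3 by Dixon's criterion. Chance gives about 1 in 20 groups. Ndufs1 was at 372.7 CPM in HCN4F-Sham 2, below 485.7 CPM in the next library. HCN4F-Sham 1 was high in Sdhc, at 385.3 CPM against 331.5, and in Uqcrfs1, at 647.1 CPM against 557.2. WT-Sham 1 was high in Uqcrfs1, at 645.9 CPM against 618.0, and in Atp5b, at 5338 CPM against 5006. HCN4F-TAC 3 was high in Atp5g2, at 140.3 CPM against 121.8. The interaction of genotype and surgery passed the test in 0 members (edgeR, 0 at an unadjusted p under 0.05, and 0 with DESeq2).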

How the results depend on the processing

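In HCN4F hearts after TAC, the count of 62 called members was 0 with the additional limit of a log2 fold change beyond 1, 31 with edgeR on the compared groups, 36 with the length trend removed, 36 with length and GC trends removed, and 38 to 68 with 1 library left out. With the other settings it was 57 to 65. In WT hearts the count of 17 was 0 with the fold limit, 35 with DESeq2 on all groups, 64 with DESeq2 and 62 with edgeR on the compared groups, 1 with the replicate block, 0 with the length trend removed, 0 with both trends removed, and 1 to 11 with 1 library left out. Over all genes with an adjusted p, 1.62% fell in WT hearts in the reported fit, 3.06% with DESeq2 on all groups, 5.31% and 4.97% with DESeq2 and edgeR on the compared groups, and 0.445% with the replicate block. In HCN4F hearts 6.41% fell in the reported fit and 4.09% with edgeR on the compared groups. The cause was not tested. Between genotypes in Sham hearts the count of 0 was 1 with DESeq2 on all groups, 2 with no filter, 1 with either trend setting, and 0 to 1 with 1 library left out (1 without HCN4F-Sham 1 or HCN4F-Sham 3). The calls over all genes moved too, from 72 to 343 with DESeq2 on all groups, 219 with no filter, 90 and 124 with the trend settings, 567 without HCN4F-Sham 1 and 24 without HCN4F-Sham 3. In TAC hearts it was 1 with DESeq2 on the compared groups and 0 to 1 with 1 library left out (1 without HCN4F-TAC 3), where all genes called went from 17 to 172 and 454. The interaction count was 0 under all settings run. The median over members moved by more than 1 SD of the library scores within groups with the trends removed, to -0.18 and -0.19 in HCN4F hearts and to -0.11 and -0.11 in WT hearts. With 1 library left out it ranged from -0.40 to -0.27 in HCN4F and from -0.34 to -0.28 in WT hearts, within that spread.

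Deviations of same-numbered libraries from their group means correlated between -0.18 and 0.22. For HCN4F-Sham 1 and 4 and their TAC counterparts the values were -0.02 and -0.14. Libraries with different numbers were not compared, so these values cannot decide whether the numbers pair the libraries. With the replicate block the count was 60 in HCN4F hearts and 1 in WT hearts.

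Single genes changed sign 10 times in HCN4F and 15 times in WT hearts after TAC, mostly near 0. With the length trend removed, then with both trends removed, values after TAC in HCN4F hearts were 0.084 and 0.094 for Cox6a1, 0.045 and 0.037 for Cox7a2l, 0.053 and 0.060 for Cox8a, and 0.12 and 0.13 for Ndufa4l2. In WT hearts they were 0.016 and 0.043 for Cox6a1, 0.080 and 0.078 for Cox7a2l, 0.081 and 0.075 for Sdhd, and 0.034 and 0.0053 for Uqcrc2, and with both removed 0.0056 for Cox6b1, 0.0064 for Ndufs3 and -0.0072 for Sdha. With 1 library left out, Ndufa4l2 ranged from -0.13 to 0.098 in HCN4F hearts, Ndufs1 from -0.043 to 0.10 and Sdha from -0.034 to 0.054 in WT hearts, Cox6b2 from -0.034 to 0.54 between Sham genotypes and Ndufb3 from -0.019 to 0.22 between TAC genotypes.

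Counting error bears mainly on Cox6b2, at 0.575 to 3.31 CPM. The limits were the 2 WT-TAC libraries, the trend on transcript length and the 2 low HCN4F-Sham libraries.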
